A study of Rattus norvegicus with 6 samples.

Results

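The genes described here are *Hmga2*, its paralog *Hmga1*, the *Igf2bp1*, *Igf2bp2* and *Igf2bp3* family and *Lin28b*, read in RNA-seq of adult rat hippocampal neural stem cells (NSCs) in which *Derl1* was knocked down. *Hmga2* was chosen by its lower TPM in the knockdown samples described here, and the other 5 genes were added by family and pathway. Rows were matched by gene symbol and, failing that, by the RefSeq identifiers of the symbol or a synonym. This gave 4 of the 6 genes among the 17315 rows of each table, and *Igf2bp3* and *Lin28b* were not analysed here. Of the 4, *Hmga2*, *Hmga1* and *Igf2bp2* had a mean TPM of 1 or more over the 6 samples and were among the 10331 genes compared, and *Igf2bp1* was below that level. TPM is a gene's share of the transcripts of a sample, corrected for transcript length and scaled to a fixed total, so levels of different genes can be set side by side.

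The cells were a line of NSCs cloned from the hippocampus of adult rats. They were transfected with a control siRNA (siControl, 3 samples) or with a single siRNA duplex against *Derl1* (siDerl1, 3 samples), so effects of the duplex on other transcripts cannot be told apart from those of the knockdown. All 6 samples then had 2 days in proliferation medium and 2 days in medium that held bFGF (10 ng/mL) and BMP4 (50 ng/mL), the treatment by which the study induced quiescence, and there was no sample without BMP4. *Derl1* encodes Derlin-1, a membrane protein of the endoplasmic reticulum that takes part in the removal of misfolded proteins. The labels number the samples 1 to 3 in each group and do not say whether they came from separate cultures, so p-values measure only the spread between these samples, which may be technical.

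HMGA2 and HMGA1 are small chromatin proteins with AT-hooks, which bind the minor groove of AT-rich DNA and alter its shape. HMGA2 is abundant in fetal neural stem cells and declines with age, and in mouse brain it is known to favor self-renewal through repression of the *Cdkn2a* locus. The microRNA let-7 represses *Hmga2*, *Lin28b*, the *Igf2bp* genes and several cell cycle genes through sites in their 3′ UTRs, while the LIN28 proteins block the maturation of let-7. The IGF2BP proteins bind mRNAs such as *Igf2* and *Myc* and affect their stability and translation.

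The let-7 family is recognized by its seed, bases 2 to 8 of the mature strand, which pairs with the target. The mature rat sequences are shown because let-7 targets are known by pairing with this seed, and they were taken from RefSeq (assembly GRCr8) and were not measured in these libraries. Capitals mark the seed.

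rno-let-7a-5p: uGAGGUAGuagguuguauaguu
rno-let-7b-5p: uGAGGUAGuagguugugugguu
rno-let-7c-5p: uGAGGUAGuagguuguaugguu
rno-let-7d-5p: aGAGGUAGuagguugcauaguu
rno-let-7e-5p: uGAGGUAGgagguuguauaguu
rno-let-7f-5p: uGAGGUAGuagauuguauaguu
rno-let-7g-5p: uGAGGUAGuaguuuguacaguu
rno-let-7i-5p: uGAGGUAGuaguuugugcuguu
rno-miR-98-5p: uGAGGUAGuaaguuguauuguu

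All 9 sequences are 22 bases long and have the seed GAGGUAG, which no other of the 693 mature rat microRNAs in the RefSeq table has. In GRCr8, let-7i lies at chr7:60527935-60527956 on the minus strand, let-7b at chr7:118684044-118684065 and let-7g at chr8:115701026-115701047, both on the plus strand. The tables of expression hold 11 rows of let-7 precursors and 1 of *Mir98*, and each is listed at 0 in all 6 samples. The libraries were made from poly(A) RNA, and mature let-7 was not analysed here. *Lin28a*, which blocks let-7 maturation as *Lin28b* does, was also listed at 0 in all 6 samples.

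The gene targeted by the siRNA, *Derl1* (NM_001014202), was at 121.59, 131.92 and 127.64 TPM in siControl samples 1 to 3 and at 44.86, 70.81 and 73.98 TPM in siDerl1 samples 1 to 3. The groups were well apart, and the mean was 127 ± 5.19 TPM (SD, n = 3) in siControl and 63.2 ± 15.98 TPM in siDerl1. Its log2 difference was -1.03 (SE 0.18), with an adjusted p of 0.497 in limma over all genes tested and 0.00884 once the sample number was added to the model as a block. The blocked call was lost in both fits that changed a further setting, at an adjusted p of 0.229 in limma without a trend and 0.104 without a filter. The residual level was lowest in siDerl1 sample 1.

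In the whole series, the sample number accounted for more of the variation than the siRNA. The first principal component held 55.7% of the variance and separated both samples numbered 1 from the other 4, and the second held 16.2% and separated siDerl1 from siControl. Between siDerl1 and siControl, 74 of the 10331 genes (0.716%) were higher and 154 (1.49%) lower by the limits of the study, a ratio of mean TPM above 1.5 or below 0.8 with an unadjusted p under 0.05. The ratio of mean TPM and the p from limma on TPM stand in for the edgeR values of the study. These calls, in every paragraph, therefore need not be those of the study. None passed an adjusted p of 0.05 in limma, with 692 at an unadjusted p under 0.05, while 57 (0.552%) did once the replicate block was added, which called 171 (1.66%) higher and 266 (2.57%) lower by the limits. Without overlap between the groups, 526 genes (5.09%) were higher in siDerl1 and 880 (8.52%) lower. Results are therefore given below by siRNA and by sample number.

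*Hmga2* (NM_032070) was at 4.06, 10.95 and 8.72 TPM in siControl samples 1 to 3 and at 2.55, 3.69 and 1.4 TPM in siDerl1 samples 1 to 3. The groups did not overlap, but siControl sample 1 stood close to the siDerl1 samples and apart from the other 2 controls. The mean was 7.91 ± 3.52 TPM (SD, n = 3) in siControl and 2.55 ± 1.15 TPM in siDerl1, a ratio of 0.322. The log2 difference was -1.29 (SE 0.38), the sixth lowest of all genes tested. This contrast chose the gene, so its values are a description and no test is given. In bulk RNA, fewer cells with a transcript and less of it per cell cannot be told apart.

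Within same-numbered samples, the log2 difference of *Hmga2* was -0.51 for number 1, -1.35 for number 2 and -2.02 for number 3. All 3 differences were negative, and the smallest was in number 1, where the siControl sample was the lowest control (4.06 TPM). *Derl1* differed by -1.42, -0.89 and -0.78 in the same pairs, and a relation between the 2 genes was not tested. Its mean level was also modest, at percentile 28.9 of the genes with any value above 0. By sample number, the mean log2 level of *Hmga2* was 0.50 lower in number 1 than in the other 2 numbers. This rested on siControl sample 1 (4.06 TPM, against 10.95 and 8.72). In siDerl1, sample 1 (2.55 TPM) lay between samples 2 and 3 (3.69 and 1.4 TPM). The F test of the number gave an adjusted p of 0.247 (limma), where 10.6% of all genes passed 0.05. Without siDerl1 sample 1 the adjusted p of the same limma test was 0.00466, and over the other fits it ran from 0.126 to 0.726.

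*Hmga1* (NM_139327), the paralog with the same DNA-binding motifs, was at 63.64, 45.37 and 32.51 TPM in siControl samples 1 to 3 and at 78.98, 63.5 and 67.78 TPM in siDerl1 samples 1 to 3. The groups met at a single point, where siControl sample 1 lay just above siDerl1 sample 2. The mean was 47.2 ± 15.6 TPM (SD, n = 3) in siControl and 70.1 ± 7.99 TPM in siDerl1, a ratio of 1.49, just under the limit of 1.5. The log2 difference was 0.61 (SE 0.22), and it did not pass the test (limma, adjusted p = 0.704, and 0.0809 with the replicate block). An exact permutation test over the 6 samples gave a two-sided p of 0.2, where 0.1 is the smallest it can give.

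The siDerl1 sample was above the siControl sample of the same number for *Hmga1* in 3 of 3 pairs, by 0.31, 0.48 and 1.04 on the log2 scale. The call by the limits of the study turned on single samples. Without siControl sample 1 the ratio was 1.80 and *Hmga1* was called higher, as it was without siDerl1 sample 2 (1.56) and without both samples numbered 1 (1.69), the last an alternative chosen after seeing the data. These fits called 88, 59 and 165 of the 10331 genes higher. The adjusted p of *Hmga1* stayed above 0.05 in each of them (limma, 0.646, 0.995 and 0.144), and over all fits it ran from 0.0809 to 0.996. Processed pseudogenes of *Hmga1* exist in the rat genome, so reads may be shared between near-identical copies and its level is uncertain.

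**Figure D1:**
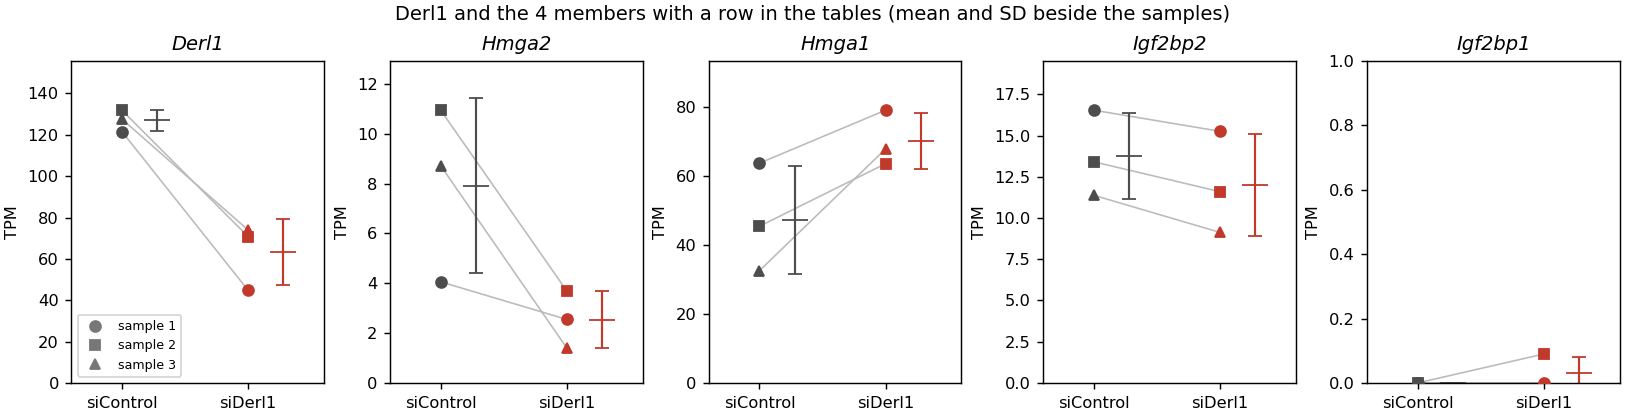
TPM of *Derl1* and of the 4 genes with a row, by siRNA, on axes that start at 0. Each symbol is a sample (circle, number 1; square, number 2; triangle, number 3), grey lines join samples of the same number, and bars show the mean and SD of 3 samples. *Hmga2* was lower in all siDerl1 samples than in any siControl sample, *Hmga1* lay higher in each pair, *Igf2bp2* lay slightly lower in each pair, and *Igf2bp1* was at or near 0.

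The 2 paralogs were far apart in level. There was 15.7, 4.14 and 3.73 times as much *Hmga1* as *Hmga2* (TPM over TPM) in siControl samples 1 to 3, and 31.0, 17.2 and 48.4 times as much in siDerl1 samples 1 to 3. All siDerl1 ratios lay above all siControl ratios, with siControl sample 1 just below siDerl1 sample 2. The ratio uses the level by which *Hmga2* was chosen and is a description. Across the 6 samples, the log2 levels of *Hmga1* and *Hmga2* had a Pearson r of -0.83 (n = 6, with the 2 siRNA groups and the 3 numbers shared by both genes).

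**Figure D2:**
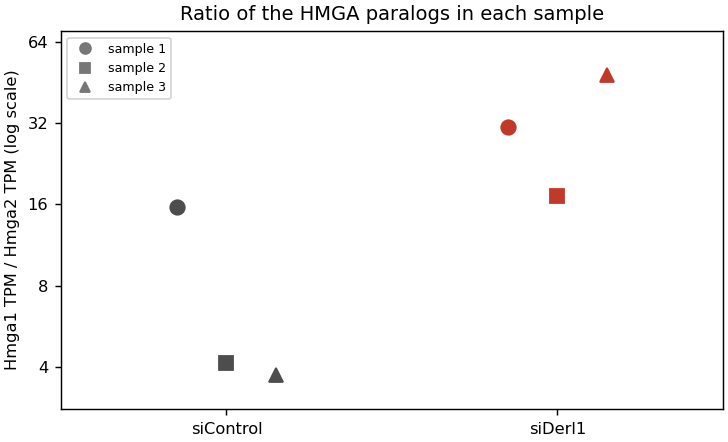
Ratio of *Hmga1* to *Hmga2* TPM in each sample, on a log axis (circle, number 1; square, number 2; triangle, number 3). The ratio ran from 3.73 to 15.7 in siControl and from 17.2 to 48.4 in siDerl1.

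*Igf2bp2* (1 row with the identifiers NM_001270598 and NM_001270599) encodes an IGF2BP protein. It was at 16.54, 13.41 and 11.38 TPM in siControl samples 1 to 3 and at 15.26, 11.6 and 9.13 TPM in siDerl1 samples 1 to 3. The groups overlapped widely, and in both of them the sample numbered 1 was highest and the sample numbered 3 lowest. The mean was 13.8 ± 2.60 TPM (SD, n = 3) in siControl and 11.997 ± 3.08 TPM in siDerl1, a log2 difference of -0.20 (SE 0.21), which did not pass the test (limma, adjusted p = 0.903, and 0.460 with the replicate block; exact permutation test, two-sided, p = 0.5). Paired by number, the differences were -0.11, -0.19 and -0.29, small and of the same sign.

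*Igf2bp1* (NM_175594) was listed at 0 in 5 samples and at 0.09 TPM in siDerl1 sample 2, too low to be compared. So of this family of RNA-binding proteins, which are best known as fetal genes, *Igf2bp2* was detected at a mean of 12.9 TPM and *Igf2bp1* at a mean of 0.015 TPM over the 6 samples.

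In both groups *Hmga1* and *Igf2bp2* were highest in the sample numbered 1, while *Hmga2* was lowest in that sample in siControl only. The mean log2 level in number 1 exceeded that in the other 2 numbers by 0.49 for *Hmga1* and by 0.46 for *Igf2bp2*. Neither passed 0.05 (F test of the number in limma, adjusted p = 0.0801 and 0.0683). For *Hmga1* the call turned on single samples, since the adjusted p was 0.0193 without siControl sample 2, 0.00129 without siDerl1 sample 1, 0.0246 without siDerl1 sample 2 and 0.0103 without siDerl1 sample 3 in the same limma test. For *Igf2bp2* the adjusted p (limma) was between 0.0632 and 0.270 in every fit run.

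**Figure D3:**
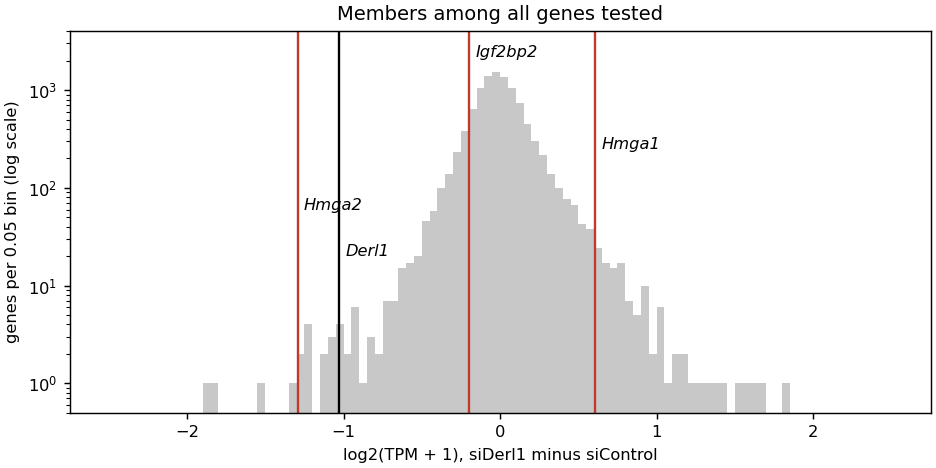
Distribution of the log2(TPM + 1) difference, siDerl1 minus siControl, over the 10331 genes tested, with the number of genes per bin on a log axis. Red lines mark *Hmga2* (-1.29), *Igf2bp2* (-0.20) and *Hmga1* (0.61), and the black line marks *Derl1* (-1.03); *Igf2bp2* lies in the body of the distribution and *Hmga2* in its lower tail.

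The other targets of let-7 were read next, from a list of 37 textbook targets that leaves out the genes above. Of these, 31 had a row and 26 were tested, and *Lin28a*, *Gdf6*, *Prtg*, *Thbs1* and *Cdk6* were below a mean of 1 TPM. None of the 26 was called by the limits of the study. There were 11 higher and 15 lower in siDerl1, with a median log2 difference of -0.05 against -0.02 over all genes tested, and 2 of the 26 had an unadjusted p under 0.05, where 6.7% of all genes did. Log2 differences of the listed targets ran from -0.32 for *Irs2* to 0.34 for *E2f6*, against -1.29 for *Hmga2*.

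The 2 targets with the smallest p were *Nras* and *E2f6*. *Nras*, a small GTPase that relays growth factor signals, was at 140.85, 152.42 and 156.02 TPM in siControl samples 1 to 3 and at 129.65, 130.73 and 127.85 TPM in siDerl1 samples 1 to 3. Its groups did not overlap, and the log2 difference was -0.21 (SE 0.06, limma, adjusted p = 0.704). *E2f6*, a repressor of the E2F family, was at 22.87, 28.28 and 23.51 TPM in siControl and at 31.48, 28.99 and 34.93 TPM in siDerl1. All its siDerl1 samples were above all its siControl samples, with a log2 difference of 0.34 (SE 0.12, limma, adjusted p = 0.704). The phosphatase gene *Cdc25a* was the third tested target whose groups did not overlap, with 33.43 to 34.99 TPM in siControl and 30.37 to 32.40 TPM in siDerl1. Such genes made up 1 higher and 2 lower of the 26, where 5.09% and 8.52% of all genes did not overlap in these directions.

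*Cdk6*, a cyclin D partner, was below the level tested, at 0, 0.26 and 0.31 TPM in siControl samples 1 to 3 and at 0.34, 0.93 and 1.3 TPM in siDerl1 samples 1 to 3. It was called higher by the limits of the study in the limma fits with no filter on low values and was not tested in the others. Those fits called 158 and, with the block, 272 of 12822 genes higher. *Irs2*, an adaptor of insulin and IGF receptors, was called lower in the limma fits with the replicate block and in no other limma fit (log2 difference -0.32, limma, adjusted p = 0.130), where 2.57% of all genes were.

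**Figure D4:**
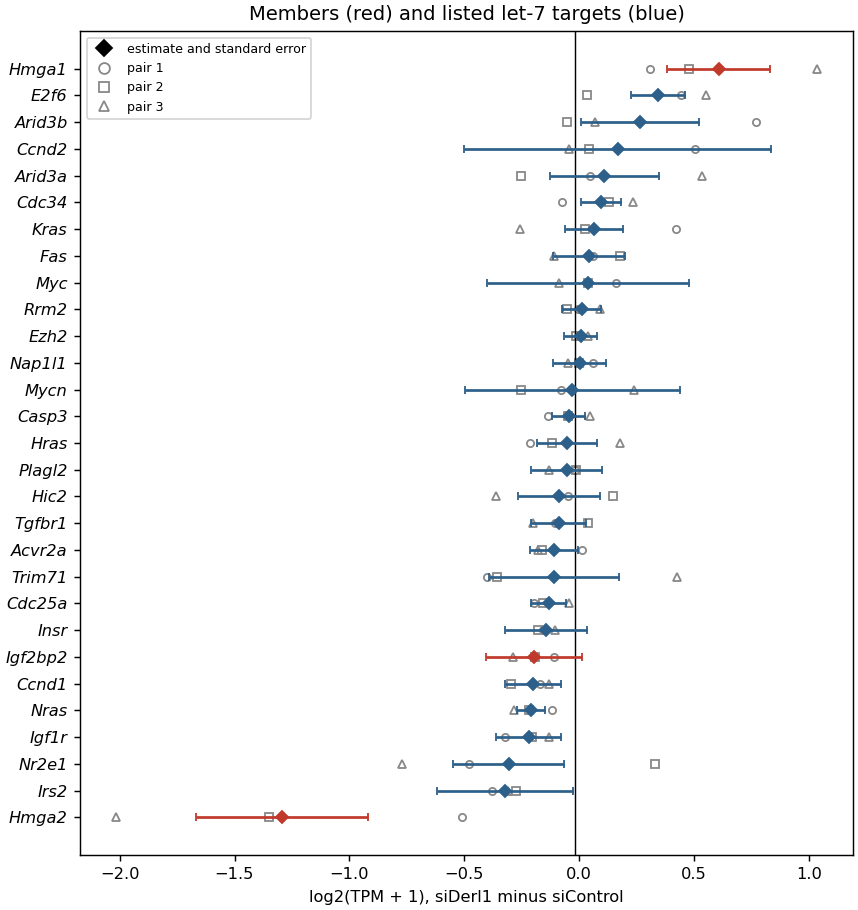
Log2(TPM + 1) difference, siDerl1 minus siControl, for *Hmga2*, *Hmga1* and *Igf2bp2* (red) and the 26 listed let-7 targets tested (blue), in order of the difference. Diamonds and bars show the limma estimate and its standard error, open symbols show the 3 pairs of same-numbered samples, and the vertical line is the median of all genes tested (-0.02). *Hmga2* lies lowest at -1.29 and *Hmga1* highest at 0.61, and the listed targets lie between them.

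By sample number, 6 of the 26 listed targets passed an adjusted p of 0.05 (23.1%, where 10.6% of all genes did). Other gene lists read below had similar shares, at 25% of the HMGA2 targets, 30% of the messages bound by IGF2BP proteins and 20% of the other high mobility group genes. The share was 16.7% of the fetal growth genes, 7.14% of the cell cycle genes and 5.88% of the let-7 processing genes. *Myc*, a transcription factor of growth and a partner of the IGF2BP proteins, was at 263.61, 153.44 and 106.35 TPM in siControl samples 1 to 3 and at 294.97, 157.5 and 99.92 TPM in siDerl1 samples 1 to 3. The same-numbered samples of the 2 groups lay close together, and the level differed with the number (F test in limma, adjusted p = 1.4e-05). Number 1 was higher than the others by 1.13 on the log2 scale. *Ccnd2*, a D-type cyclin and a target of MYC, went the other way, with 17.35, 76.16 and 82.88 TPM in siControl and 25.04, 78.43 and 80.41 TPM in siDerl1. Its log2 level differed with the number (F test in limma, adjusted p = 3.62e-05) and was lower in number 1 (difference -1.88).

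*Mycn*, *Irs2* and *Ccnd1* were also lower in number 1, with log2 differences of -1.27, -0.82 and -0.25, and the nucleosome assembly gene *Nap1l1* was higher, by 0.30. Their adjusted p (F test of the number in limma) ran from 0.0013 for *Mycn* to 0.0174 for *Ccnd1*. *Mycn*, a relative of *Myc*, was at 8.05, 20.17 and 20.41 TPM in siControl samples 1 to 3 and at 7.57, 16.78 and 24.27 TPM in siDerl1. In both groups, number 1 was the highest sample for *Myc* and the lowest for *Mycn*. Over the other fits of the sample number, between 4 and 7 of the listed targets passed; *Ccnd2*, *Irs2*, *Myc* and *Mycn* passed in all of them. The share of all genes that passed ran from 2.44% in the fit without a trend, which called 4 of the listed targets, to 15.4% without siControl sample 1, which called 7.

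**Figure D5:**
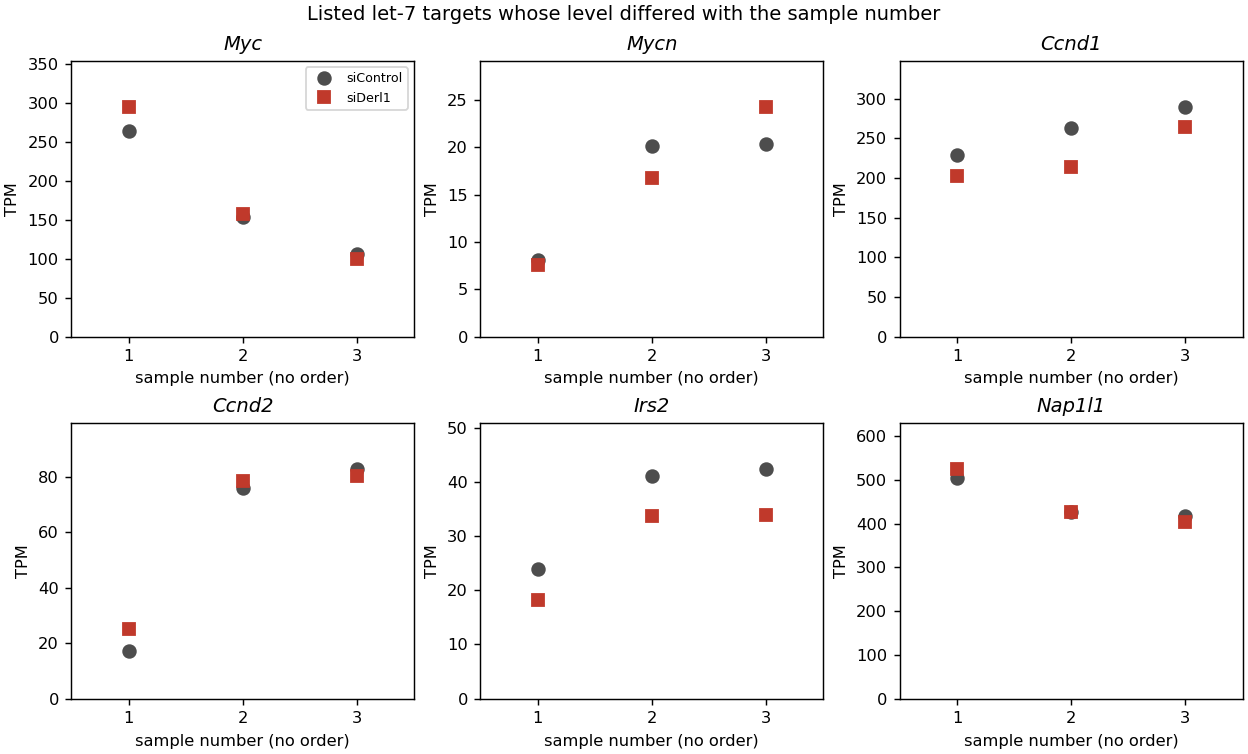
TPM of the 6 listed let-7 targets that differed with the sample number, by number (grey circles, siControl; red squares, siDerl1), on axes that start at 0. *Myc* and *Nap1l1* were highest in number 1, and *Mycn*, *Ccnd1*, *Ccnd2* and *Irs2* were lowest in it, in both groups. For *Ccnd1* and *Irs2* the siDerl1 sample also lies below the siControl sample of each number.

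Genes that make and turn over let-7 were read for the other side of the pathway. Of 20 listed, 18 had a row and 17 were tested, with 10 higher and 7 lower in siDerl1, a median log2 difference of 0.04 and no gene called. *Ago1*, an Argonaute that carries microRNAs, was at 45.71, 47.88 and 51.25 TPM in siControl samples 1 to 3 and at 41.71, 40.01 and 41.52 TPM in siDerl1, and *Zcchc11*, a uridylyltransferase that marks let-7 precursors, was at 33.67 to 35.31 TPM in siControl and 28.47 to 32.13 TPM in siDerl1. Neither pair of groups overlapped, as for 8.52% of all genes in this direction, and neither difference passed the test, at -0.23 for *Ago1* and -0.19 for *Zcchc11* (log2, limma, adjusted p = 0.704 and 0.740). *Trim25*, a cofactor of LIN28A, was the 1 gene of this list that differed with the sample number, at 6.63 and 5.67 TPM in the samples numbered 1 and 15.1 to 21.12 TPM in the other 4 (F test in limma, adjusted p = 0.0013). That is 5.88% of the 17 tested, where 10.6% of all genes passed.

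The listed targets of HMGA2 were read as its known downstream genes. Of 11, all had a row and 8 were tested, with 3 higher and 5 lower in siDerl1, a median log2 difference of -0.02 and none called. *Cdkn2b*, which encodes the cyclin-dependent kinase inhibitor p15, was at 42.08, 40.2 and 42.57 TPM in siControl samples 1 to 3 and at 35.62, 34.99 and 30.55 TPM in siDerl1. The groups did not overlap, and *Cdkn2b* lay lower in siDerl1, as *Hmga2* did, with a ratio of 0.810 and a log2 difference of -0.30 (SE 0.09, limma, adjusted p = 0.704). It was called lower by the limits of the study when siControl sample 2, siDerl1 sample 1 or siDerl1 sample 2 was left out, and without both samples numbered 1, at ratios of 0.787 to 0.797. Those fits called between 124 and 290 of the 10331 genes lower.

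*Cdkn2a*, its neighbor in the locus, was at 26.88, 31.75 and 37.29 TPM in siControl samples 1 to 3 and at 30.97, 25.83 and 25.88 TPM in siDerl1 samples 1 to 3. The groups overlapped, with a log2 difference of -0.20 (limma, adjusted p = 0.828), and *Cdkn2a* was called lower without siControl sample 1 (ratio 0.798) and without both samples numbered 1 (0.749). Those fits called 262 and 290 of the 10331 genes lower. *Junb*, an AP-1 subunit that HMGA2 is known to lower in NSCs, was at 65.07, 102.3 and 106.63 TPM in siControl and at 70.94, 153.57 and 154.95 TPM in siDerl1. It followed the sample number (F test in limma, adjusted p = 0.00128), with a log2 difference between the groups of 0.41 (limma, adjusted p = 0.857). It was called higher without siDerl1 sample 1 (ratio 1.69), a fit that called 118 of the 10331 genes higher. *Snai1*, a transcription factor of epithelial-mesenchymal transition, also differed with the number (F test in limma, adjusted p = 0.00263). It was at 5.3 and 4.14 TPM in the samples numbered 1, against 11.47 to 20.73 TPM in the other 4 samples. *Junb* and *Snai1* were 2 of the 8 tested genes of this list (25%), where 10.6% of all genes passed by the number.

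Messages bound by the IGF2BP proteins were read as the partners of that family. Of 13 listed, all had a row and 10 were tested, with 6 higher and 4 lower in siDerl1, a median log2 difference of 0.03 and none called or at an unadjusted p under 0.05 in limma. The growth factor gene *Igf2*, from which the family takes its name, was at 44.53, 38.36 and 44.95 TPM in siControl samples 1 to 3 and at 42.83, 43.63 and 43.85 TPM in siDerl1 samples 1 to 3, with the siDerl1 values inside the range of siControl. *Lamb2*, which encodes a laminin chain and was named for its small p, had a log2 difference of 0.23 (limma, adjusted p = 0.763).

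Other genes of fetal growth were mostly low. Of 15 listed, 14 had a row and 6 were tested, and the imprinted RNA *H19* was listed at 0 in all samples while *Dlk1* was at 0.85, 0.62 and 0.46 TPM in siControl samples 1 to 3 and at 0, 0 and 0.16 TPM in siDerl1. *Dlk1*, a Notch-related growth regulator, was called lower in the limma fits with no filter on low values and was not tested in the others. Those fits called 208 and, with the block, 331 of 12822 genes lower. Of the 6, 2 were higher and 4 lower, with a median log2 difference of -0.11 and none called. *Cdkn1c*, an imprinted inhibitor of the cell cycle, was at 3.4, 8.9 and 6.79 TPM in siControl and at 1.66, 5.7 and 4.61 TPM in siDerl1. It was lower in siDerl1 in 3 of 3 pairs and lower in number 1 in both groups, and was called lower with the replicate block (log2 difference -0.59, limma, adjusted p = 0.157) and without both samples numbered 1. The block called 266 of the 10331 genes lower, and the fit without both samples numbered 1 called 290. *Igf2r*, the receptor that clears IGF2, differed by -0.15 (limma, adjusted p = 0.879).

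The other high mobility group genes ranged widely in level, from a mean of 2.57 TPM for *Hmgn5* upward. Of 11 listed, 10 had a row and all 10 were tested, 4 higher and 6 lower, with a median log2 difference of -0.02 and none called or at an unadjusted p under 0.05 in limma. The largest differences by p were 0.20 for *Hmgn3* and 0.14 for *Hmg20b* (limma, adjusted p = 0.740 and 0.763), and *Hmg20b* did not overlap between siControl (104.33 to 113.66 TPM) and siDerl1 (114.08 to 124.18 TPM). Of 14 cell cycle genes, all tested, 5 were higher and 9 lower, with a median log2 difference of -0.02 and none called or at an unadjusted p under 0.05 in limma. *Mki67*, a marker of cycling cells, was at 77.03 to 84.80 TPM in siControl and 79.61 to 94.01 TPM in siDerl1 (log2 difference 0.09, limma, adjusted p = 0.879), and the mitotic kinase gene *Plk1* differed by -0.09 (limma, adjusted p = 0.884).

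The label of the cells was checked against markers. All 7 NSC markers were above 1 TPM on average and summed to 3960 to 5855 TPM in siControl and 4404 to 5849 TPM in siDerl1. Most of that sum was *Vim*, an intermediate filament that other cell types also make (3008 to 5044 TPM over the 6 samples). Neuron markers summed to 107.87 to 125.96 and 114.61 to 135.31 TPM, and oligodendrocyte markers to 1635 to 1894 and 1612 to 2116 TPM, with *Mog* listed at 0. Microglia, mesenchymal and endothelial markers summed to at most 5.46 TPM in any sample, with 1 of 6, 3 of 8 and 2 of 5 of them listed at 0. Among the NSC markers, *Gfap*, an intermediate filament of astrocytes and NSCs, was at 47.01, 27.74 and 28.88 TPM in siControl samples 1 to 3 and at 66.28, 47.51 and 45.32 TPM in siDerl1. It was called higher by the limits of the study (ratio 1.54), where 0.716% of all genes were. It had the direction of *Hmga1*, both by siRNA (log2 difference 0.62, limma, adjusted p = 0.704) and by sample number. By number, 6 of the 7 NSC markers passed (F test in limma), against 10.6% of all genes. Of these 6, 3 were higher in number 1 and 3 lower. Between the siRNA groups, the adjusted p of *Gfap* in limma was 0.0219 in the blocked fit. It was 0.229 in the block without a trend and 0.111 in the block without a filter. *Nes*, another intermediate filament of NSCs, lay the other way, at 137.1, 125.08 and 112.65 TPM in siControl samples 1 to 3 and at 110.93, 101.11 and 99.41 TPM in siDerl1 (log2 difference -0.26, limma, adjusted p = 0.704), with no overlap. Of the 7 markers, 4 were higher and 3 lower in siDerl1. Whether the makeup of the cultures had a part in the levels of *Hmga2* and *Hmga1* was not tested.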

How the data were processed

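RNA-seq was from 6 samples of adult rat hippocampal NSCs, 3 per siRNA, grouped and numbered by their labels. Per the submitters' processing notes and the methods of the study, the authors used Trimmomatic (0.39) for trimming, STAR (2.7.3a) for mapping to rn6, RSEM (1.3.2) for quantification and edgeR (3.28.1) for tests on values not used here. What the authors deposited is TPM with 2 decimals. TPM keeps no depth, so the depth of each sample is unknown and no counting interval can be given, and the values are shares of a fixed total. Each table has 17315 rows, of which 12822 are above 0 in any sample (11641 to 11808 per sample). In 26 rows the symbol reads as a date and was not changed. Several RefSeq identifiers share a row in 1048 cases.

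Differences were computed with limma (3.58.1, R 4.3.3) on log2(TPM + 1), which understates changes of low genes, with lmFit and a trended eBayes, over 10331 genes (mean TPM of 1 or more), and p was adjusted by Benjamini-Hochberg over all of them. The sample number was tested by an F test over all numbers with siRNA in the model, which gives no direction. Numbers were taken to pair the samples, since deviations from the group means correlated between same-numbered samples (r = 0.70, 0.35 and 0.51; numbers 2 and 3 also correlated across numbers, r = 0.34 and 0.25), and the fit with the number as a block was an alternative. The labels tie the numbers to no batch or day. The code was tested on simulated data. Genes were named by rule: the members and *Derl1*, the listed genes past the limits of the study or, failing any, the 2 of each list with the smallest p, and the genes most and least correlated with *Hmga2*; *Cdc25a*, *Cdk6*, *Irs2*, *Junb*, *Snai1*, *Trim25*, *Igf2*, *Dlk1*, *Hmgn5*, *Vim*, *Nes* and the targets that differed with the number were named after their values were seen. A gene that the rule named is not reported here. The members and lists were chosen with earlier results of these data known. Alternatives were eBayes without a trend, a pseudocount of 0.1, median-of-ratios scaling, a minimum mean of 5 TPM or none, the block, and each sample left out in turn; leaving out both samples numbered 1, and 2 combinations with the block, were added after seeing the data. Sequences came from RefSeq tables of GRCr8.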

Additional observations from a re-analysis of the deposited data

How the results depend on the processing

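The log2 difference of *Hmga2*, whose sign the choice of the gene fixes, ran from -1.66 without siControl sample 1 to -1.04 without siControl sample 2 and was -1.58 with a pseudocount of 0.1 and -1.68 without both samples numbered 1. With each sample left out in turn, *Hmga1* ran from 0.37 to 0.84 and *Igf2bp2* from -0.37 to -0.03. With the sample number as a replicate block, 171 genes were higher and 266 lower by the limits of the study, against 74 and 154, and 57 passed an adjusted p of 0.05 in limma, against 0 (692 at an unadjusted p under 0.05). The block gave *Derl1* an adjusted p of 0.00884 (limma, with 0.229 without a trend and 0.104 without a filter). It added calls of *Irs2* and *Cdkn1c* (lower) and of *Hes5*, an NSC marker (higher, ratio 1.78). The log2 differences of *Hes5* were 0.20, 2.30 and 0.34 in pairs 1 to 3, so 1 pair carried most of its difference. Chosen after seeing the data, the block without a trend gave 177 higher, 305 lower and 0 by adjusted p, the block without a filter 272, 331 and 2, and the fit without both samples numbered 1 gave 165, 290 and 33. Without a filter 158 genes were higher, and at a mean of at least 5 TPM 30 were. Leaving out each sample in turn gave 59 to 118 higher (118 without siDerl1 sample 1), 124 to 262 lower (262 without siControl sample 1) and 0 by adjusted p. The number was called for 1092 genes, for 591 without a filter, 252 without a trend, 532 without siRNA in the model and 608 to 1594 with a sample left out (608 without siDerl1 sample 3, 666 without siControl sample 3). The cause of these shifts was not tested. Median-of-ratios factors lay between 0.99 and 1.02. Of *Hmga2*, *Igf2bp1*, *Cdk6* and other low genes, TPM of 2 decimals with no depth limits what can be said.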

Other observations

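The genes whose log2 levels followed *Hmga2* most closely over the 6 samples were *Clcn3*, an endosomal chloride transporter gene (Pearson r = 0.99), *Mrpl40*, a mitochondrial ribosomal protein gene (0.99), *Eif4enif1*, whose product binds eIF4E (0.99), the ubiquitin peptidase gene *Usp24* (0.99) and *Gria4*, an AMPA receptor subunit gene (0.98). *Clcn3* was at 47.76, 58.97 and 53.91 TPM in siControl samples 1 to 3 and at 44.67, 48.08 and 41.4 TPM in siDerl1. It shared with *Hmga2* a siControl sample 1 below the other controls and a lowest value in siDerl1 sample 3, over a much narrower range (ratio 0.835, against 0.322). The most opposite genes were *Ssna1* (-0.98), *Mroh1* (-0.97) and *Trim67* (-0.97), and *Trim67* was at 1.78, 0.98 and 0.88 TPM in siControl and 1.82, 1.68 and 2.66 TPM in siDerl1. Among 10330 other genes, 122 had an r above 0.9 and 33 below -0.9. These values describe 6 samples that share the siRNA groups and the sample numbers.

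Outside the NSC markers, 2 marker genes were called by the limits of the study with limma on TPM, both lower, of 4 neuron, 4 oligodendrocyte, 1 microglia and 2 mesenchymal markers tested; 1.49% of all genes were called lower. *Dcx*, a microtubule protein of immature neurons, was at 8.83, 10.95 and 9.57 TPM in siControl samples 1 to 3 and at 6.38, 7.1 and 7.63 TPM in siDerl1 (log2 difference -0.42, limma, adjusted p = 0.704), and *Tagln*, an actin-binding protein of smooth muscle and mesenchymal cells, was at 2.45, 1.95 and 1.91 TPM in siControl and at 0, 1.21 and 0.25 TPM in siDerl1 (log2 difference -1.14, limma, adjusted p = 0.704). Both were lower in every siDerl1 sample than in any siControl sample, as 8.52% of all genes tested were. Other markers of their lists lay the other way with no overlap, as 5.09% of all genes tested did. Among neuron markers, *Tubb3* was at 58.81 to 74.92 TPM in siControl and 76.25 to 83.16 TPM in siDerl1, and the 4 tested split into 2 higher and 2 lower. Among mesenchymal markers, *Pdgfrb* was at 0.26 to 0.47 TPM in siControl and 0.97 to 1.44 TPM in siDerl1, *Col1a1* at 0.78 to 1.34 and 1.40 to 1.94 TPM, and *Col1a2* at 0.10 to 0.18 and 0.20 to 0.65 TPM. With means of 0.82 and 0.24 TPM over all samples, *Pdgfrb* and *Col1a2* were below the level tested. *Tubb3*, *Pdgfrb*, *Col1a1* and *Col1a2* were named after their values were seen.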
